A study of Mus musculus with 6 samples.

Results

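The ribosome biogenesis factors described here are 40 genes, taken by name from a list of factors that transcribe, process and assemble ribosomal RNA. The list was drawn up with earlier results of these data known, so its share of calls is a description and not independent evidence. All 40 were found, each as a single row, among the 23358 genes of the deposited count table. They were read in 6 RNA-seq libraries of mouse calvaria, bone of the skull roof, taken at 2 to 3 days of age. Of these libraries, 3 carry the genotype label wild type (WT, Ezh2_WT_Osx) and 3 the label Ezh2 conditional knockout (cKO, Ezh2_cKO-Osx). Ezh2 is the methyltransferase of Polycomb repressive complex PRC2, and Osx is the former symbol of Sp7, which encodes a regulator needed to form osteoblasts. The label Osx stands in both groups, but the labels do not say which Cre line was used, whether the WT mice also carried it, or which part of Ezh2 was removed. The tissue was whole calvaria after a short collagenase and trypsin digestion and holds cells of more than 1 type. In such bulk RNA, fewer cells of a type and less RNA per cell cannot be told apart. Each library carries its group and its label's number as a name (WT 14, 27 and 29, and cKO 8, 10 and 37), and the labels do not say that each came from a separate mouse. The p-values therefore measure the spread between these libraries, which may be partly technical.

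Ribosomes are built in the nucleolus. RNA polymerase I (Pol I) makes a long ribosomal RNA precursor, small nucleolar ribonucleoproteins (snoRNPs) modify it, and a large complex called the small subunit processome cuts and folds the part that becomes the 40S subunit. A separate set of factors assembles the 60S subunit. Output of this pathway is known to rise with growth and protein synthesis, osteoblasts are cells that secrete large amounts of matrix protein, and many of its genes are known targets of the transcription factor Myc.

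The gene counts summed to between 60449016 and 95439578 per library. No count of any of the 40 genes was below 668, so none was lost to the filter on low counts. Ezh2 itself, in TMM-scaled CPM (counts relative to library size), was 20.7, 21.7 and 20.4 in WT (libraries 14, 27 and 29, the order used throughout) and 19.2, 20.6 and 19.8 in cKO (8, 10 and 37). Those ranges overlap, and the log2 fold change of -0.07 ± 0.07 (standard error) did not pass (adjusted p = 0.507). Since the deleted part is not given, the total does not check the labels, and every direction below rests on them. Osteoblast markers were abundant in every library, with a summed level of 98819 to 179775 CPM over 10 genes.

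Of the 40 genes, 12 fell in cKO, 0 rose and 28 did not pass with edgeR's quasi-likelihood test at an adjusted p of 0.05 over all 16089 tested genes. Of all tested genes, 6.45% were called lower and 5.96% higher, against 30% and 0 of these 40. At an unadjusted p under 0.05 there were 19 lower and 0 higher of the 40, against 2347 lower and 2328 higher of all 16089. DESeq2 and limma voom called 14 and 11 of the 40 lower and none higher, where 8.63% and 6.18% of all genes were called lower. The median log2 fold change (cKO over WT throughout) was -0.15 over the 40 and 0.01 over all tested genes. In 21 of the 40 (52.5%) all 3 cKO libraries lay below all 3 WT libraries, which was so in 17.4% of all tested genes. The falls were of 15.5% to 30.6%, and none of the 12 reached a 1.5-fold change. Without WT 14, WT 29 or cKO 8 the number that fell was 4, 4 and 3, where 3.43%, 2.36% and 1.81% of all genes were called lower. Tested against a fold change of 1.2 (glmTreat) it was 0, where 0.311% of all genes were called lower at the same adjusted p. At an unadjusted p under 0.05 glmTreat held 5 of the 40, a threshold at which all genes were not counted.

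**Figure D1:**
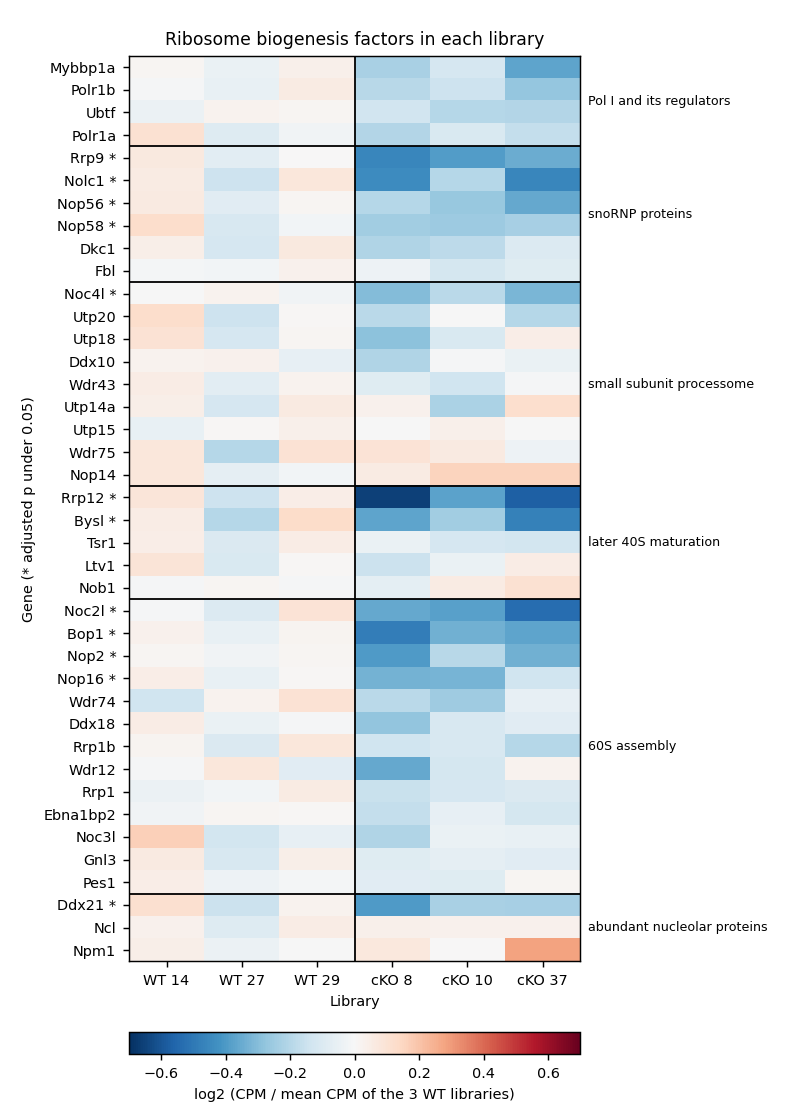
Each cell is the log2 ratio of a gene's CPM in 1 library to the mean CPM of the 3 WT libraries, for 40 genes (rows, grouped by role) in 6 libraries (columns); stars mark the 12 genes with an adjusted p under 0.05. The deepest blue is Rrp12 in cKO 8, and the small subunit processome rows and Ncl and Npm1 show the palest or mixed cKO columns.

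**Figure D2:**
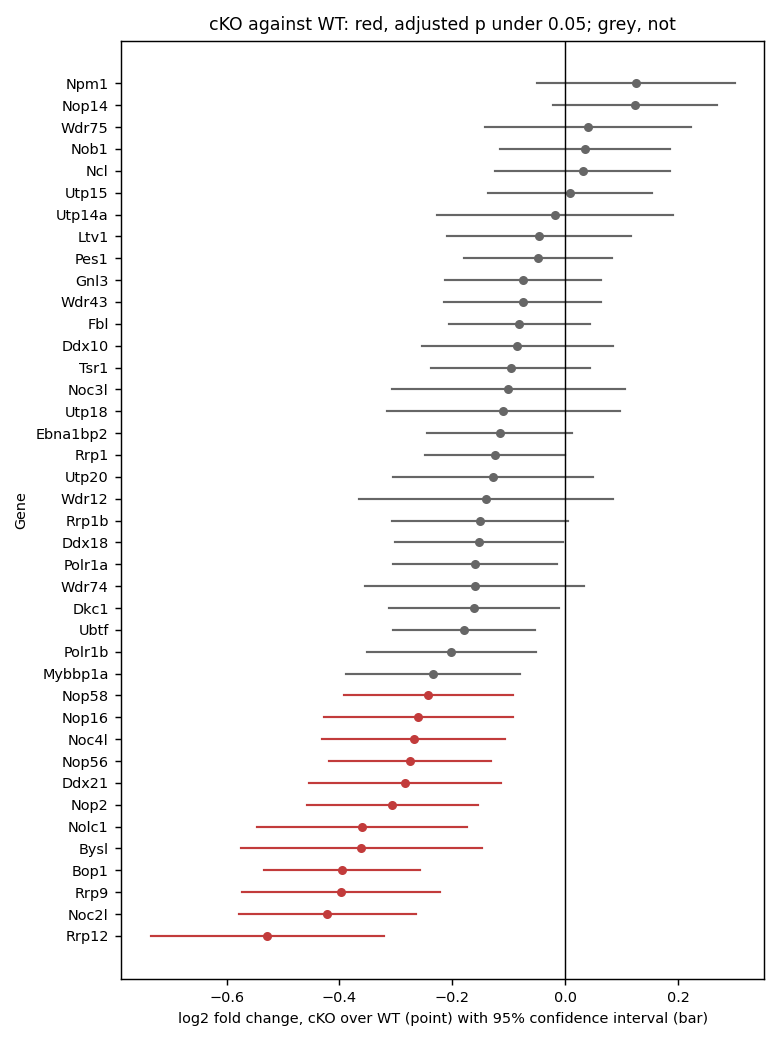
Log2 fold changes of the 40 genes (points, cKO over WT, n = 3 libraries per group) with 95% confidence intervals (bars). The 12 red genes lie between -0.53 (Rrp12) and -0.24 (Nop58), and 6 grey genes lie above 0, up to 0.13 (Npm1).

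Pol I and its regulators came close to the threshold without passing it. Polr1a (chromosome 6, 71909053 to 71979360), the largest catalytic subunit, was 58.5, 51.2 and 53.4 CPM in WT and 47.1, 50.5 and 48.4 in cKO. Polr1b, the second catalytic subunit, was 23.4, 22.7 and 24.5 in WT and 20.6, 21.3 and 19.5 in cKO. Ubtf, the factor that binds the ribosomal DNA promoter and keeps it open, was 165, 172 and 171 in WT and 154, 148 and 147 in cKO. In each of these genes the groups did not overlap, with cKO lower. Mybbp1a, a nucleolar regulator of Pol I transcription, was 140, 134 and 142 CPM in WT and 119, 128 and 108 in cKO, also without overlap. Log2 fold changes were -0.23 ± 0.07 for Mybbp1a, -0.18 ± 0.06 for Ubtf and -0.20 ± 0.07 for Polr1b, the 3 of the 40 just beyond the threshold (edgeR adjusted p = 0.0505, 0.0631 and 0.0739). Polr1a was at -0.16 ± 0.07 (adjusted p = 0.137). DESeq2 called Mybbp1a and Ubtf lower (adjusted p = 0.0233 and 0.0267).

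The row Rn45s is named for the ribosomal RNA precursor that Pol I makes, from which mature ribosomal RNA is cut. Its reads may come from either, so its share does not measure the precursor alone. Rn45s took 10.5%, 6.1% and 6.92% of the gene counts in WT and 12%, 8.1% and 9.06% in cKO. The groups overlapped, at 7.85% ± 2.36 against 9.71% ± 2.01 (SD, n = 3; exact permutation p = 0.4, two-sided, the smallest this design allows being 0.1). How far these shares follow the removal of ribosomal RNA during library preparation, which the labels do not describe, was not tested. Removing Rn45s before scaling left 12 of the 40 lower, where 6.41% of all genes were called lower.

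The snoRNP proteins held the largest share of falls, 4 of 6. Box C/D snoRNPs place methyl groups on ribosomal RNA, and their core proteins include Nop56, Nop58 and the methyltransferase fibrillarin (Fbl). Nop56 (chromosome 2, 130274412 to 130279313) was 74.6, 67.5 and 72.1 CPM in WT and 62.1, 59.3 and 55.6 in cKO. Nop58 was 58.9, 49.99 and 53.3 in WT and 45.6, 45.4 and 46.1 in cKO. Both were lower in every cKO library than in any WT library, and both fell (log2 -0.28 ± 0.07, adjusted p = 0.0223 for Nop56; -0.24 ± 0.07, adjusted p = 0.0408 for Nop58). Fbl was 56.3, 56.2 and 58.2 CPM in WT and 55.4, 52.2 and 53.7 in cKO, again without overlap but at a smaller distance (-0.08 ± 0.06, 95% confidence interval -0.21 to 0.04, adjusted p = 0.381). Rrp9 (chromosome 9, 106477309 to 106485415), a protein specific to the U3 snoRNP that guides the first cuts of the precursor, fell from 16.5, 15.002 and 15.8 CPM in WT to 11.5, 12.02 and 12.4 in cKO (log2 -0.40 ± 0.08, adjusted p = 0.0118). Nolc1, a chaperone of snoRNPs in the nucleolus, was 65.4, 57.1 and 66.5 in WT and 46.5, 54.9 and 45.9 in cKO. The nearest libraries were WT 27 and cKO 10, and the gene fell by 0.36 ± 0.08 (adjusted p = 0.0218). Dkc1, the pseudouridine synthase of box H/ACA snoRNPs, was 31.4, 28.2 and 32.0 CPM in WT and 26.4, 26.9 and 28.6 in cKO. WT 27 lay below cKO 37 there, and Dkc1 did not pass (-0.16 ± 0.07, adjusted p = 0.146).

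Among 9 genes of the small subunit processome, 1 fell and 8 did not pass. Noc4l, which acts in 40S assembly as a partner of Nop14, was 17.7, 18.04 and 17.4 CPM in WT and 14.4, 15.6 and 14.2 in cKO (log2 -0.27 ± 0.07, adjusted p = 0.0381). Its groups did not overlap. Nop14 lay in the other direction, at 25.8, 23.4 and 24.1 CPM in WT and 25.5, 27.2 and 27.2 in cKO, with overlap (0.12 ± 0.07, adjusted p = 0.246). Utp14a, Utp15, Utp18, Utp20, Wdr43, Wdr75 and the helicase gene Ddx10 are the other 7. Their log2 fold changes ranged from -0.13 (Utp20) to 0.04 (Wdr75), none passed, and in each the groups overlapped. The median over all 9 was -0.08.

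Later 40S maturation brought the largest fall of the 40. Rrp12 (chromosome 19, 41862851 to 41896153), a factor for the export and maturation of preribosomes, was 21.7, 18.4 and 21.1 CPM in WT and 13.0, 15.8 and 13.8 in cKO. Every cKO library was lower than the lowest WT library, WT 27, and the difference was -0.53 ± 0.09 on the log2 scale (95% confidence interval -0.74 to -0.32, adjusted p = 0.00742). Bysl, an adaptor of 40S precursors, fell from 21.1, 17.7 and 22.2 CPM to 15.7, 17.2 and 14.6 (-0.36 ± 0.10, adjusted p = 0.0352), with only a narrow gap between WT 27 and cKO 10. Bysl overlaps the neighbouring gene Ccnd3 by 358 bases. The GTPase-like factor Tsr1 (-0.10 ± 0.06), the export adaptor Ltv1 (-0.05 ± 0.07) and Nob1 (0.04 ± 0.07), the nuclease that makes the final cut of the small subunit RNA, did not pass (adjusted p = 0.356, 0.728 and 0.776).

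In 60S assembly, 4 of 13 genes fell and all 13 values were negative. Bop1 (chromosome 15, 76452996 to 76477269), the scaffold of the PeBoW complex that processes large subunit RNA, was 44.1, 41.6 and 43.7 CPM in WT and 30.8, 34.2 and 33.4 in cKO. The groups stood well apart, and Bop1 had the smallest p of the 40 (log2 -0.40 ± 0.06, adjusted p = 0.00477). Scx, a tendon transcription factor gene, lies inside Bop1. Its own value was -0.49 ± 0.22 (adjusted p = 0.198), and reads of the shared bases cannot be told apart without strand.

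The other PeBoW members did not pass. Pes1 was 50.5, 47.7 and 48.4 CPM in WT and 46.2, 46.2 and 49.4 in cKO, with overlap (-0.05 ± 0.06, 95% confidence interval -0.18 to 0.08, adjusted p = 0.635). Wdr12 was 14.2, 15.1 and 13.5 in WT and 11.1, 13.1 and 14.5 in cKO (-0.14 ± 0.10, adjusted p = 0.403). Noc2l (chromosome 4, 156236010 to 156247616), which escorts 60S precursors and also binds histones, was 77.9, 73.2 and 83.8 CPM in WT and 61.1, 60.2 and 54.1 in cKO. Its groups were far apart, and it fell by 0.42 ± 0.07 (adjusted p = 0.00636). The RNA methyltransferase Nop2 was 28.7, 27.9 and 28.6 CPM in WT and 21.6, 24.8 and 22.5 in cKO, a fall of 0.31 ± 0.07 (adjusted p = 0.0179). Nop16 was 21.7, 20.2 and 21.1 in WT and 16.7, 16.8 and 19.1 in cKO, a fall of 0.26 ± 0.08 (adjusted p = 0.047). Both separated the groups, Nop16 by a narrow gap between WT 27 and cKO 37. The other 7, namely Noc3l, Rrp1, Rrp1b, the helicase gene Ddx18, the nucleostemin gene Gnl3, Ebna1bp2 and Wdr74, ranged from -0.16 to -0.08 and did not pass.

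**Figure D3:**
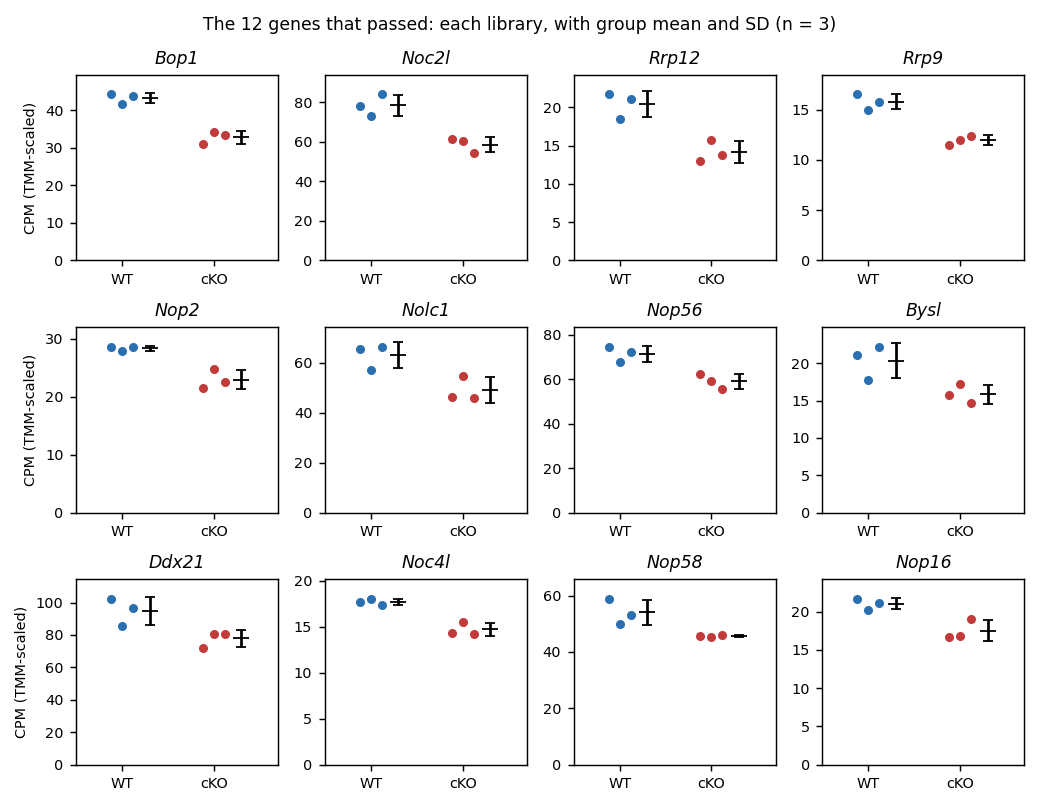
TMM-scaled CPM of the 12 genes that passed, in each library (points; blue WT in the order 14, 27, 29 and red cKO in the order 8, 10, 37), with the group mean and SD beside them (black mark and bar, n = 3). No red point reaches a blue point in any panel, and the closest are in Bysl, where WT 27 is at 17.7 and cKO 10 at 17.2.

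The abundant nucleolar proteins differed among themselves. Nucleolin (Ncl), which packages the precursor RNA, was 455, 419 and 463 CPM in WT and 456, 454 and 455 in cKO. Nucleophosmin (Npm1), which forms the outer layer of the nucleolus, was 323, 305 and 314 in WT and 331, 315 and 382 in cKO. Groups overlapped in both, and neither passed (0.03 ± 0.07 and 0.13 ± 0.08, adjusted p = 0.813 and 0.335). Npm1 is a gene with processed copies in the genome, so its value is uncertain where reads could be divided. Ddx21, a helicase that links Pol I transcription to snoRNP action, was 102, 85.4 and 96.6 CPM in WT and 71.9, 80.9 and 80.7 in cKO. It fell by 0.28 ± 0.08 (adjusted p = 0.0366), without overlap.

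The summed level of the 40 was 2316 to 2481 CPM in WT and 2229 to 2295 in cKO. Without Ncl and Npm1 it was 1591 to 1703 against 1443 to 1496. In the deposited RPKM, which are per gene length, Npm1 was highest at 133 to 170 and Ncl next at 39.1 to 42.4. Rrp1, at 34.2 to 41.3, and Fbl, at 33.9 to 37.8, came after them with ranges that overlap each other. The lowest by mean RPKM was Noc3l (2.44 to 3.24), just under Rrp12 (2.12 to 3.63). The genes that fell therefore stood at many levels, from rank 5 of 40 (Nop56) to rank 39 (Rrp12).

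**Figure D4:**
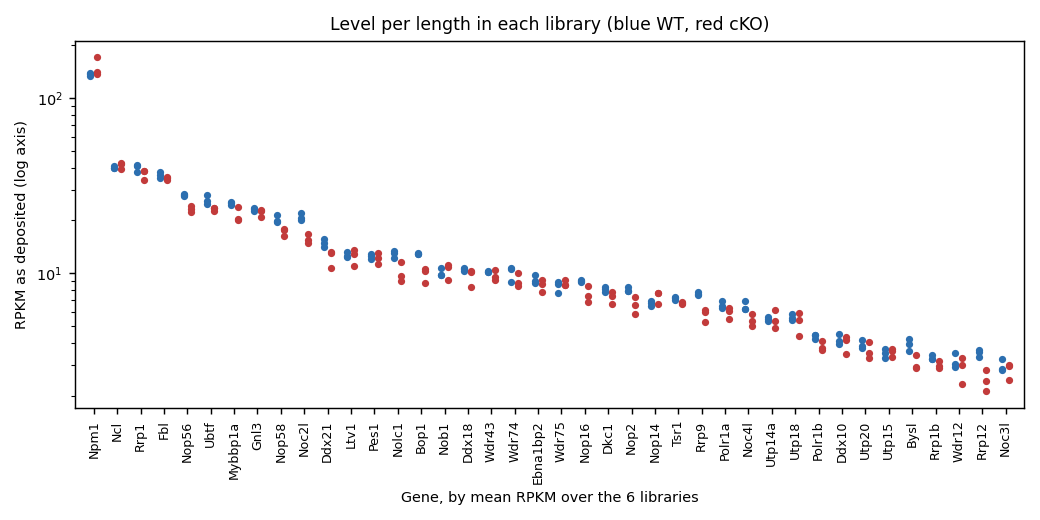
Deposited RPKM (log axis) of each of the 40 genes in the 6 libraries (blue WT, red cKO), ordered by mean RPKM. Npm1 stands alone at 133 to 170 and the lowest genes lie between 2.12 and 3.63.

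Partners within a complex were compared through the ratio of their RPKM in each library, for 7 pairs chosen after the values above were seen. Bop1 over Pes1 was 1.03, 1.03 and 1.06 in WT and 0.785, 0.87 and 0.794 in cKO. Noc4l over Nop14 was 0.908, 1.02 and 0.956 in WT and 0.747, 0.757 and 0.692 in cKO. Nop56 over Fbl was 0.735 to 0.81 in WT and 0.634 to 0.694 in cKO, and Nop58 over Fbl was 0.522 to 0.613 against 0.483 to 0.509. These 4 ratios were lower in each cKO library than in any WT library. The exact permutation p was 0.1 each, two-sided, the smallest possible with 3 libraries per group (0.175 after Benjamini-Hochberg adjustment over the 7). In each of the 4 the first gene had been called lower and the second had not, so the direction follows from that choice. Their p-values are a description and not independent evidence. Bop1 over Wdr12, Noc2l over Noc3l and Polr1a over Polr1b overlapped between the groups (exact permutation p = 0.2, 0.2 and 0.6). For the Pol I pair the ratio was 1.43 to 1.64 in WT and 1.5 to 1.62 in cKO.

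Other genes of the pathway were taken from lists written for this purpose. Over 5 lists with 135 tested genes, 15 fell (11.1%) and 5 rose, with a median of -0.07. Of all tested genes, 6.45% were called lower and 5.96% higher. In 13 further snoRNP proteins and assembly factors, 4 fell (30.8%) and 0 rose, with 7 lower and 0 higher at an unadjusted p under 0.05. They were the AAA ATPase genes Ruvbl2 (-0.29 ± 0.06) and Ruvbl1 (-0.30 ± 0.07) and the H/ACA core genes Nop10 (-0.36 ± 0.08) and Gar1 (-0.32 ± 0.09), with adjusted p = 0.0152, 0.0252, 0.0211 and 0.0321. Gar1 was 19.1, 19.8 and 19.9 CPM in WT and 17.0, 16.2 and 13.9 in cKO, and Nop10 15.1, 16.1 and 14.9 against 11.3, 11.8 and 12.8. Both separated the groups, as Dkc1, their catalytic partner, did not.

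In the rest of the Pol I machinery 1 of 13 fell (7.69%, near the 6.45% of all genes) and 1 rose. The median of these 13 was 0.02 and 7 values were positive, with 1 lower and 3 higher at an unadjusted p under 0.05. The lower direction of the 4 Pol I genes above was thus not shared by this list. Tcof1, the gene of the nucleolar protein treacle, which joins Pol I transcription to RNA modification and is mutated in a craniofacial syndrome, was 45.6, 44.0 and 44.9 CPM in WT and 33.4, 36.8 and 31.4 in cKO. The groups were far apart, and it fell by 0.41 ± 0.07 (adjusted p = 0.00604). Taf1b, a promoter recognition factor of Pol I, rose by 0.32 ± 0.08 (adjusted p = 0.0251). Of 39 other small subunit factors, 1 fell (2.56%, below the share of all genes) and 1 rose. At an unadjusted p under 0.05, 12 of these 39 were lower and 3 higher, against 2347 and 2328 of all 16089. The median of the 39 was -0.07. Pno1 fell (-0.28 ± 0.07, adjusted p = 0.0332) and the helicase gene Ddx52 rose (0.24 ± 0.07, adjusted p = 0.0399). Of 46 other 60S factors, 7 fell (15.2%) and 1 rose. The 4 with the smallest p were Rrs1 (-0.36 ± 0.08), Npm3 (-0.60 ± 0.15), Wdr18 (-0.25 ± 0.06) and Mrto4 (-0.29 ± 0.08), with adjusted p = 0.0202, 0.0255, 0.0271 and 0.0319.

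The RNA exosome trims precursor ends, and RNase MRP cuts between the small and large subunit parts. Of 24 genes of these, 2 fell (8.33%, against 6.45% of all genes) and 2 rose. Exosc6 (-0.54 ± 0.15) and Exosc2 (-0.28 ± 0.08) were lower (adjusted p = 0.0436 and 0.0497). Rpp38, a protein subunit, rose by 0.81 ± 0.23 (adjusted p = 0.0415). Rmrp, the RNA component of RNase MRP, was 1.48, 0.973 and 1.17 CPM in WT and 3.91, 1.84 and 5.15 in cKO. The groups did not overlap, and it rose by 1.59 ± 0.37 (adjusted p = 0.0319), on 68 to 396 deposited counts per library.

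Myc was 40.02, 31.6 and 39.0 CPM in WT and 33.0, 30.5 and 26.4 in cKO. WT 27 lay below cKO 8, and Myc did not pass (-0.30 ± 0.11, adjusted p = 0.0947). In the Myc network, 1 of 11 tested genes rose, the antagonist gene Mxi1 (0.40 ± 0.10, adjusted p = 0.0357), and 0 fell with edgeR. Calls over all tested genes were 5.96% higher and 6.45% lower, so 1 call in 11 is not read as a result about the network. Of the 11, 2 were lower and 2 higher at an unadjusted p under 0.05.

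Promoter sequence was looked at because 12 of the genes fell together and many genes of this pathway are bound by Myc. RefSeq windows (GRCm38.p6, the assembly that mm10 names) of 300 bases, from 250 before to 50 after each start, were found for 36 of the 40, as 45 windows. Bop1, Rrp12, Fbl and Npm1 had no entry. The E-box CACGTG, which reads the same on both strands, was in 17.8% of these windows and in 7.15% of all 32851. It was found in Ltv1, Mybbp1a, Nop2, Pes1, Tsr1, Utp18, Utp20 and Wdr43, of which Nop2 alone fell, among 10 matched genes that fell. CCGGAAG, the core bound by ETS factors, searched on both strands, was in 24.4% of the windows and 8.86% of all. It was found in 10 genes, of which Noc2l, Nolc1 and Nop2 fell. Ddx10, Ebna1bp2, Ltv1, Noc3l, Tsr1, Utp18 and Wdr74 also hold it and did not pass. TATAAA, the TATA box, also searched on both strands, was in 4.44% against 13.6%. The 3 motifs do not overlap one another in the sequences printed, and a match describes letters only. Printed 5′ to 3′ are the 250 bases before the start of the 2 genes that fell with a match there, and of Utp18, which holds the E-box and the ETS core but did not pass (-0.11 ± 0.09, adjusted p = 0.479). Capitals mark the matches.
Nop2, chr6:125131633-125131882, plus strand: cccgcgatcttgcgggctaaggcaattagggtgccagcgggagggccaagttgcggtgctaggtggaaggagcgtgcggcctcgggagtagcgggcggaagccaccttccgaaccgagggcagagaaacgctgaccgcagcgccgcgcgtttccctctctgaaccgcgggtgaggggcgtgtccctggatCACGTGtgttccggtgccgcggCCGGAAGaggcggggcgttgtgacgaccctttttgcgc
Nolc1, chr19:46075597-46075846, plus strand: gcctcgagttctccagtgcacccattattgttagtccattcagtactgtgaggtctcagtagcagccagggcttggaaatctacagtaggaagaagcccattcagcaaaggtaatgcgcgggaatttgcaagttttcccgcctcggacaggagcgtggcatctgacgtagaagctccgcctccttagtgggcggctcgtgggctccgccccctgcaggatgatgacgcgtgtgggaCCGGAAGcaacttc
Utp18, chr11:93885767-93886016, minus strand: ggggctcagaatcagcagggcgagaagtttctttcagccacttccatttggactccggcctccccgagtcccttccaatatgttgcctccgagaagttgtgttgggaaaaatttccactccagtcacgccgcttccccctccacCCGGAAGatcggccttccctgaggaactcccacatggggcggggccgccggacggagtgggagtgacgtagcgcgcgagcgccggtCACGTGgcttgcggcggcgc
In Nop2 the E-box starts 60 and the ETS core 38 bases before the transcript start, in Nolc1 the ETS core starts 14 bases before it, and in Utp18 the ETS core starts 106 and the E-box 20 bases before it.

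Base composition moved with the fold change. The median GC content of the transcripts was 54.9% in the 12 genes that fell and 47.8% in the 28 that did not pass, against 50.8% over 15854 tested genes with a value. Across the 40 genes, which share the same 6 libraries, Spearman's rho between GC content and log2 fold change was -0.62, and across all those tested genes it was -0.26. After correction of each library for GC content and length, rho was -0.24 over the 40 and -0.01 over all. The correction was fitted to these same data, so the weak rho over all genes follows from it. With that offset 9 of the 40 fell and 0 rose, where 5.81% of all genes were called lower, and the median of the 40 was -0.16. Noc4l, Bysl and Nop16 were the calls lost (edgeR adjusted p = 0.122, 0.0527 and 0.101). Their log2 fold changes were -0.18, -0.32 and -0.20 with the correction and -0.27, -0.36 and -0.26 without it.

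**Figure D5:**
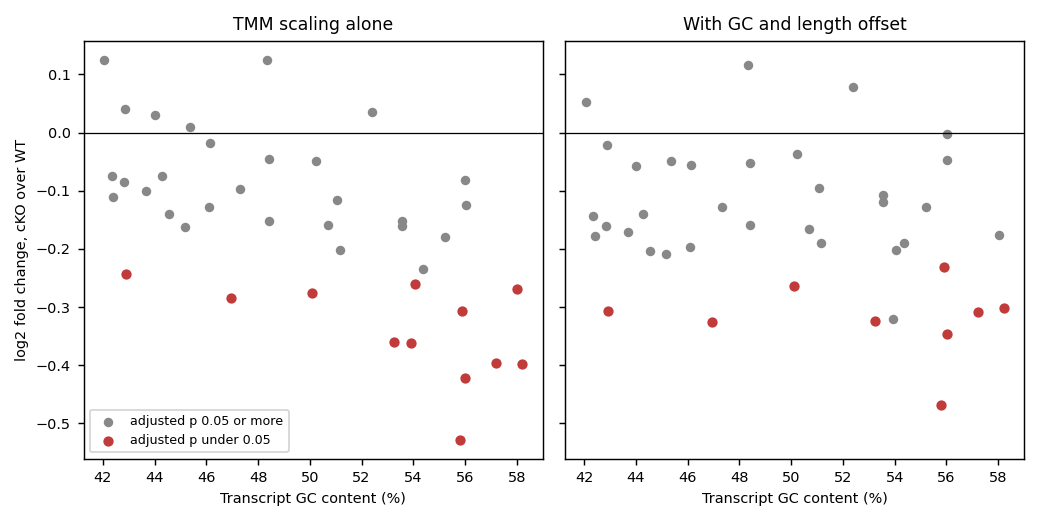
Log2 fold change (cKO over WT) of the 40 genes against the GC content of their transcripts (%), with TMM scaling alone (left) and after correction for GC and length (right); red points have an adjusted p under 0.05. On the left 12 points are red, most of them above 50% GC, and on the right 9.

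Position was not shared. The 12 genes lie on 11 chromosomes and the 40 on 16. Of the 40, 6 hold snoRNA entries in the table (11 in all, in Ncl, Nop56, Nop58, Gnl3, Tsr1 and Wdr43). At least 1 of the entries was abundant enough to test in Ncl, Nop56, Gnl3, Tsr1 and Wdr43, with no call among them. Another gene overlaps 10 of the 40, of which 4 fell (Bop1, Noc2l, Nop56 and Bysl). Neither the strand setting nor how reads in shared bases were counted is given in the sources used here.

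Several gene sets outside the pathway moved with the same groups. Early response genes, which tissue handling and stress induce, fell in 20 of 24 (83.3%, median -0.72). The share called lower over all tested genes was 6.45%. Early response genes had a summed level of 5756 to 6589 CPM in WT and 3251 to 4044 in cKO. Ier2 (-0.72 ± 0.06), Atf3 (-1.49 ± 0.12), Jund (-0.69 ± 0.07) and Socs3 (-0.89 ± 0.09) had the smallest p. Heat shock genes fell in 8 of 12 (66.7%, median -0.32), led by Dnajb1 (-0.45 ± 0.06), with sums of 2699 to 2974 in WT and 2268 to 2609 in cKO. Osteoclast markers summed to 2989 to 4274 CPM in WT and 2419 to 3056 in cKO, with 1 of 8 lower (Acp5, 12.5%). All 8 had a negative value (median -0.55), and 5 were lower at an unadjusted p under 0.05. Macrophage markers summed to 424 to 520 against 354 to 409, without overlap and with 1 of 8 lower (Csf1r, 12.5%). Sums of osteoblast, chondrocyte, endothelial, erythroid, neutrophil, B lineage and keratinocyte markers overlapped between the groups, and so did those of neural markers. Within these lists 1 of 10 osteoblast, 1 of 8 endothelial and 1 of 6 neural markers were called lower, and no other was called. These shares were 10%, 12.5% and 16.7%, against 6.45% of all tested genes. Each is a single call in a short list and is not read as a shift of that list. Osteoblast sums were 132366 to 179775 CPM in WT and 98819 to 134701 in cKO. Chondrocyte sums varied widely, from 2244 to 8338 CPM in WT and from 801 to 6504 in cKO. Skeletal muscle markers summed to 14.8 to 16.2 CPM in WT and 16.5 to 18.3 in cKO, with 0 of 7 called by edgeR and 2 higher at an unadjusted p under 0.05. The part of any of these in the ribosome biogenesis values was not tested.

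Libraries within a group also differed. WT 27 was the lowest WT library in 31 of the 40 genes, and cKO 8 the lowest cKO library in 19. How often each was lowest over all tested genes was not counted. Without WT 27, 10 of the 40 fell, with a median of -0.17, where 3.74% of all genes were called lower. Without cKO 8, 3 fell, with a median of -0.12, against 1.81% of all genes. Bop1, Noc2l and Rrp12 passed without any single library and in each of the 15 alternatives other than glmTreat. The other 9 lost the call without at least 1 library.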

How the data were processed

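RNA-seq was available for 6 calvarial libraries, 3 WT and 3 cKO. Per the submitters' processing notes, bcl2fastq, TopHat2 2.0.6, HTSeq and mm10 were used by the authors; no source used here gives the annotation, strand or trimming settings. The deposited values are read counts per gene and RPKM. Each of the counts is even (0 odd), so both reads of a pair may have been counted, which was not tested; printed counts may then exceed the number of fragments, and the counts were also tested halved. The RPKM deposited by the authors follow from count, gene length and a library total above the gene sum, and served for levels between genes only. The length column in bases is as deposited, per the file headers.

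Counts were tested in R 4.3.3 with edgeR 4.0.16 (filterByExpr, minimum count 10, 16089 genes; TMM factors 0.952 to 1.07; robust quasi-likelihood F test, Benjamini-Hochberg over all genes, threshold 0.05). DESeq2 1.42.0, limma 3.58.1 voom, glmTreat at 1.2-fold, other scalings and filters, and omission of each library were alternatives. GC content was the median over GENCODE vM21 reference transcripts of a symbol. The code was tested on simulated data. The 40 genes, their roles and all lists were chosen with earlier results of these data known. Named were all 40, up to 4 passing genes of each pathway or handling list by smallest p, and Rn45s, Rmrp, Myc and Ezh2. The 7 complex pairs were added after values were seen.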

Additional observations from a re-analysis of the deposited data

How the results depend on the processing

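Leaving out 1 library at a time left 3 to 10 of the 40 ribosome biogenesis genes lower and 0 higher, 586 to 1985 genes called in all, and 1 to 12 of the other pathway and Myc network genes called (1 to 9 lower, 0 to 4 higher). Over these runs 1.81% to 6.48% of all genes were called lower. The main counts were 12, 1997 and 21 (15 lower, 6 higher). With glmTreat at 1.2-fold, 112 genes were called, 0 of the 40 (0 lower) and 0 of the pathway lists (0 lower, 0 higher). At an adjusted p of 0.1, 3277 genes, 15 of the 40 and 37 of the pathway lists (26 lower, 11 higher) were called. The 15 were all lower, where 10.5% of all genes were called lower. With the GC and length correction the lists held 13 calls, 2 of them higher. Upper-quartile scaling left 9 of the 40 lower (Nop58, Noc4l and Nop16 were lost), where 4.75% of all genes were called lower. It made 60.9% of all calls higher, against 48%. The cause of these changes was not tested.

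The sign turned in 6 of the 40, none of them called. With the GC and length correction the log2 values were Utp15 -0.0490, Wdr75 -0.0215 and Ncl -0.0566, and with upper-quartile scaling Utp14a was 0.00901. Without 1 library the ranges were Utp14a -0.0954 to 0.0655, Utp15 -0.0159 to 0.0277, Wdr75 -0.0540 to 0.0932, Ltv1 -0.102 to 0.00367, Nob1 -0.00699 to 0.0826 and Ncl -0.0162 to 0.0585. Among the 9 genes that lost the edgeR call without a library, the highest adjusted p was 0.168 in Nop16, 0.152 in Ddx21, 0.139 in Bysl, 0.134 in Nop58, 0.126 in Noc4l, 0.0972 in Nolc1, 0.0846 in Nop2, 0.0811 in Nop56 and 0.0572 in Rrp9. Halving the counts left 12 of the 40 lower, with Nop16 lost and Mybbp1a gained, where 6.91% of all genes were called lower. No paired analysis was possible because the groups share no replicate numbers. With 3 libraries per group, a difference of a single gene smaller than its confidence interval could not be resolved.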
